A study of Anser cygnoides with 12 samples.

Results

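Smooth muscle forms the outer wall of the jejunum, the thin layer under the mucosa and the wall of its vessels. It contracts when calcium enters the cell, calmodulin activates myosin light chain kinase, and the phosphorylated myosin pulls on filaments of smooth muscle actin that are coated with tropomyosin and tied to each other and to the cell membrane by cross-linking proteins. In the gut this machinery mixes and moves the content, and its transcripts are among the usual marks of how much muscle a tissue sample holds.

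A set of 10 genes of this machinery was described in the jejunum of female Sichuan white geese. They were chosen by name, with earlier results of these data known: ACTG2, MYH11, MYL9, MYLK, TPM1, TPM2, SMTN, FLNC, DES and CNN1. The gene table held 18007 genes, and 8 of the 10 names were found in it, while DES and CNN1 were not analysed here. All 8 passed the filter on low counts, as did 14863 genes in all.

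The geese were 250 days old when feeding began and were sampled after 12 weeks. Con geese ate a corn-soybean meal diet, LWG geese a diet with 21.8% wheat germ and HWG geese one with 43.6% wheat germ, with 4 geese sequenced per diet. In the feed composition that the paper gives, soybean meal, soybean oil, rapeseed meal and bran decreased as wheat germ increased. Wheat germ therefore cannot be told apart from these other ingredients here. The sources used here call the sample jejunal tissue and do not say whether a piece held the whole wall or how much of it was muscle. Each library came from 1 goose, and the total count per library was between 40159187 and 45686956.

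The tissue carried marks of intestinal epithelium and of smooth muscle, and its position along the gut was not tested. Levels per length of transcript are given as FPKM, fragments per kilobase of transcript scaled to the depth of the library. EPCAM, an adhesion protein of gut epithelium, lay between 405.8 and 804.9 FPKM, and VIL1, which bundles the actin of the brush border, between 99.1 and 385 FPKM. Outside the 8 genes, the smooth muscle actin ACTA2 lay between 129.9 and 604 FPKM and MYOCD, a coactivator that switches on smooth muscle genes, between 4.86 and 17.3 FPKM. Of 16 listed markers of striated muscle, 8 stayed under 0.5 FPKM in every library. Among these, TNNC1 was listed at 0 in 11 libraries, MYOZ1 in 10 and MYOD1 in 8, and TNNT3 did not exceed 0.143 FPKM. The others of the list reached at least 0.5 FPKM in some library. They include the striated actins, ACTA1 at 4.92 to 70.2 FPKM and ACTC1 at 0.478 to 42.1 FPKM.

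ACTG2, the gamma actin that builds the thin filaments of visceral smooth muscle, had the highest level per length of the 8 genes, with 2121 ± 1903 FPKM over all geese (SD, n = 12). TPM2, a tropomyosin, followed with 626 ± 371 FPKM, MYL9, the regulatory light chain of myosin, with 561 ± 306 FPKM and MYH11, the smooth muscle myosin heavy chain, with 518 ± 297 FPKM. The other tropomyosin gene, TPM1, averaged 301 ± 194 FPKM, the kinase MYLK 173 ± 106 FPKM and SMTN, smoothelin, a protein of contractile smooth muscle cells, 129 ± 76.8 FPKM. FLNC, filamin C, a large actin cross-linker best known from striated muscle, was the lowest at 11.6 ± 6.5 FPKM. Over all geese the spreads of TPM2, MYL9 and MYH11 covered each other's means, as did those of MYLK and SMTN. Within each goose, however, MYLK lay above SMTN, most narrowly in LWG replicate 2 (128.2 against 127.5 FPKM). The order of TPM2, MYL9 and MYH11 changed from goose to goose.

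The 8 genes together took between 0.524% and 4.09% of all counts in a library. The lowest share was in Con replicate 3 and the highest in HWG replicate 2, and both these geese stood at the ends of the order for most of the genes. ACTG2 alone ranked first among all genes by count in HWG replicate 2, ranked 2 in HWG replicate 1 and ranked 143 in Con replicate 3.

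Values of single genes in single geese are given below as CPM, counts relative to the TMM-scaled library size, which compare geese for a gene and not genes with each other. In bulk tissue, fewer muscle cells and less of a transcript in each muscle cell cannot be told apart.

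ACTG2 had 2562, 2328, 784 and 4476 CPM in the Con geese, 1201, 1462, 2386 and 5511 CPM in the LWG geese, and 6572, 10957, 1059 and 2593 CPM in the HWG geese, for replicates 1 to 4 of each diet. Each diet held geese with low and with high values, and the 3 diets overlapped. The highest value was 14.0 times the lowest. The SD of log2 CPM within a diet was 1.20 for ACTG2, larger than that of 91.4% of the genes tested.

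MYH11 had 2462, 2751, 1747 and 5346 CPM in Con, 2491, 3326, 3316 and 3974 CPM in LWG, and 5513, 8715, 1872 and 4508 CPM in HWG. Con replicate 3 and HWG replicate 3 were the lowest pair of geese, and the LWG geese lay closer together than those of the other diets. MYL9, whose product is the light chain that the kinase phosphorylates, had 1104, 1167, 729 and 1681 CPM in Con, 1201, 1704, 1219 and 1712 CPM in LWG, and 2407, 3532, 737 and 2039 CPM in HWG. Of the HWG geese, 3 of 4 lay above all Con and all LWG geese, and replicate 3 lay among the lowest. MYLK, the kinase itself, had 1259, 1268, 694 and 2872 CPM in Con, 1146, 1408, 1490 and 2108 CPM in LWG, and 2369, 4303, 901 and 1951 CPM in HWG. Only HWG replicate 2 exceeded the highest Con goose.

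The tropomyosins lie along the actin filament and govern access of myosin to it. TPM2 had 567, 578, 313 and 761 CPM in Con, 521, 621, 465 and 702 CPM in LWG, and 1530, 1491, 339 and 948 CPM in HWG. HWG replicates 1, 2 and 4 lay above every goose of the other diets, and replicate 3 lay below all but 1 of them. TPM1 had 2207, 1873, 1213 and 3585 CPM in Con, 1787, 2003, 2269 and 3348 CPM in LWG, and 4112, 7157, 1422 and 2295 CPM in HWG. Here HWG replicates 1 and 2 stood above all others, and replicate 4 lay in the range of Con and LWG.

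SMTN had 506, 530, 380 and 936 CPM in Con, 584, 815, 587 and 628 CPM in LWG, and 1239, 1820, 354 and 1012 CPM in HWG. HWG replicates 1, 2 and 4 stood above every other goose and HWG replicate 3 was the lowest of all. FLNC had 30.1, 40.7, 29.4 and 109.7 CPM in Con, 87.3, 183, 76.6 and 91.2 CPM in LWG, and 85.0, 159, 67.3 and 119 CPM in HWG. Con replicates 1, 2 and 3 lay below all 8 geese fed wheat germ, and Con replicate 4 lay inside their range.

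**Figure D1:**
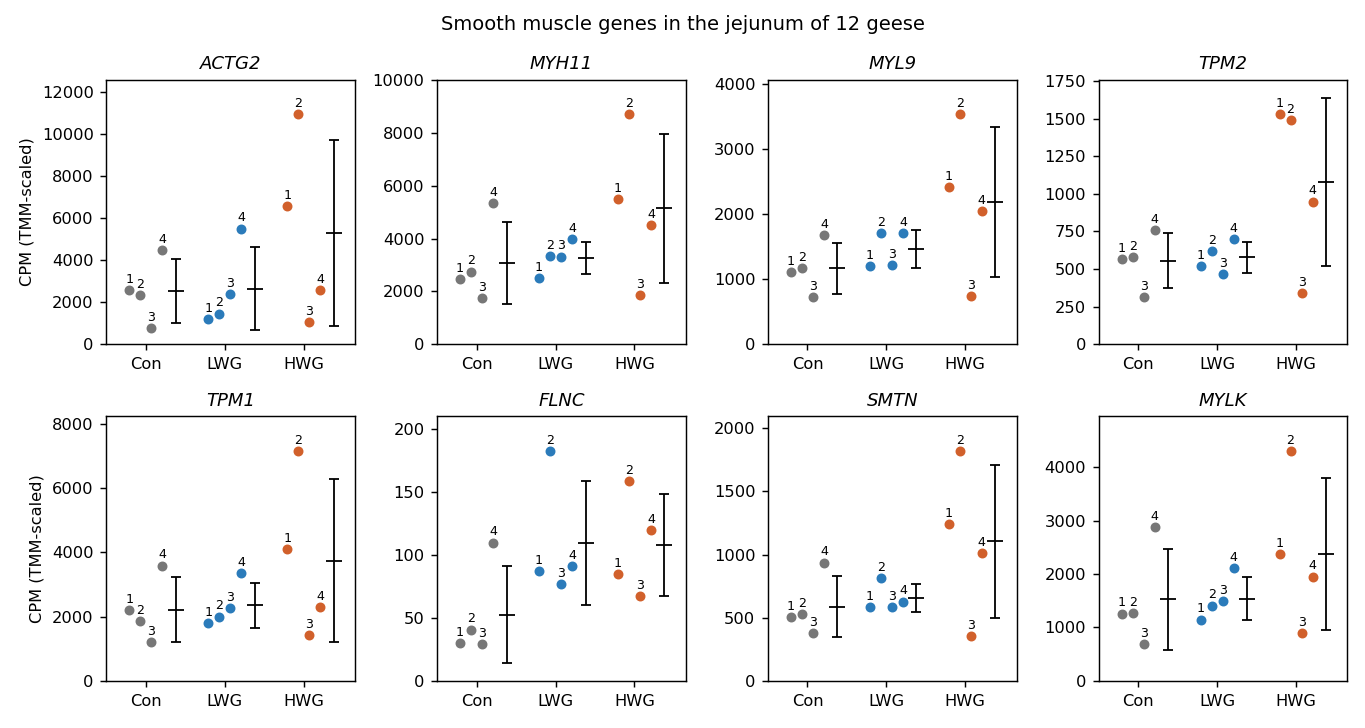
Level of each of the 8 smooth muscle genes in CPM (vertical axes, from 0) in the Con, LWG and HWG geese, with a point per goose marked by its replicate number and a bar for the mean ± SD (n = 4 each). HWG replicates 1 and 2 are high and HWG replicate 3 is low in 7 of the panels, while FLNC sets Con replicates 1 to 3 below all geese fed wheat germ.

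The first comparison asked whether the lower dose of wheat germ went with a different level of these genes. FLNC averaged 109 ± 49.2 CPM in LWG and 52.5 ± 38.5 CPM in Con (SD, n = 4 each), a log2 fold change of 1.06 with a standard error of 0.44. Its unadjusted p was 0.0312 and its adjusted p 0.706 in edgeR's quasi-likelihood test, with adjustment by Benjamini-Hochberg over all genes tested. The other 7 genes had log2 fold changes between 0.01 for MYLK and 0.32 for MYL9, each with an interval that held 0. For TPM2 the 95% interval ran from -0.79 to 0.91.

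Thus 1 of 8 genes had an unadjusted p under 0.05 in LWG over Con with a higher level and 0 a lower one, and over all genes tested these shares were 2.83% and 3.8%. At an adjusted p under 0.05 edgeR called 0 of the 8 and 0.0% of all genes, limma called 0 of both, and DESeq2 called 0 of the 8 and 37 of all genes. The groups overlapped for all 8, against 2.87% of all genes without overlap. The median log2 fold change was 0.09, against 0.01 over all genes tested, but its sign depended on single geese: it was -0.13 without Con replicate 3, -0.05 without LWG replicate 4 and 0.49 without Con replicate 4. With library size alone in place of TMM scaling, 3 of the 8 had a positive value. FLNC kept a positive value in every alternative, but its unadjusted p was above 0.05 without Con replicate 1, 2 or 3, without LWG replicate 2 and with library size alone, and its log2 fold change was 0.69 without LWG replicate 2 and 1.71 without Con replicate 4.

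The second comparison asked the same of the higher dose, with the same Con geese as its base. All 8 genes had a higher mean in HWG than in Con, and 4 had an unadjusted p under 0.05. In edgeR these were TPM2 with a log2 fold change of 0.96 (SE 0.40, unadjusted p = 0.0316), FLNC with 1.04 (SE 0.44, unadjusted p = 0.0345), MYL9 with 0.90 (SE 0.39, unadjusted p = 0.0399) and SMTN with 0.91 (SE 0.40, unadjusted p = 0.0421). They belong to different layers of the machinery: a tropomyosin, a cross-linker, the myosin light chain and smoothelin. The adjusted p was 0.939 for each of the 8 in edgeR.

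TPM2 averaged 1077 ± 559 CPM in HWG and 555 ± 184 CPM in Con (SD, n = 4 each), MYL9 2179 ± 1152 CPM in HWG and 1170 ± 392 CPM in Con, and SMTN 1106 ± 606 CPM in HWG and 588 ± 241 CPM in Con. FLNC averaged 108 ± 40.4 CPM in HWG and 52.5 ± 38.5 CPM in Con. The value of ACTG2 was as large, at 1.06, but its standard error was 0.70 and the 95% interval ran from -0.45 to 2.57 (unadjusted p = 0.153). The myosin heavy chain MYH11 had 0.74 (unadjusted p = 0.108), TPM1 0.76 (unadjusted p = 0.125) and the kinase MYLK 0.64 (unadjusted p = 0.193).

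Over all genes tested, 2.13% were higher in HWG over Con at an unadjusted p under 0.05 and 2.04% lower, beside 4 and 0 of the 8 smooth muscle genes. The 4 are not separate results, since most of the 8 moved closely together over the geese (median r of 0.93 in pairs without FLNC). The genes were also chosen with earlier results of these data known, and the 8 were not tested as a set. At an adjusted p edgeR called 0 of the 8 and 0.0% of all genes, limma called 0 of both, and DESeq2 called 0 of the 8 and 5 of all genes. All 8 overlapped between the diets, and 2.31% of all genes did not. The median log2 fold change of the 8 was 0.90, against -0.01 over all genes tested, of which 3.16% had a value above 0.90.

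This count rested on single geese. It was 0 without Con replicate 1, 2 or 3 or without HWG replicate 2, and 1 without HWG replicate 1 (FLNC) or HWG replicate 4 (TPM2). In these fits between 1.27% and 2.17% of all genes were higher at this level. The count was 7 of 8 without Con replicate 4, with 3.34% of all genes higher. It was 8 of 8 without HWG replicate 3, with 5.56% of all genes higher and 2 at an adjusted p among those 11 libraries. The median stayed positive throughout, at 0.49 without HWG replicate 2 and 1.22 without HWG replicate 3. The count was also 1, FLNC alone, with limma on log2 FPKM and with only the Con and HWG libraries in the fit. In those fits 1.72% to 2.76% of all genes were higher.

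The third comparison set the doses against each other. TPM2 averaged 1077 ± 559 CPM in HWG and 577 ± 105 CPM in LWG (SD, n = 4 each), a log2 fold change of 0.90 (SE 0.40, unadjusted p = 0.0412, adjusted p = 0.463 in edgeR). For FLNC the value was -0.02, with a 95% interval from -0.96 to 0.91 and with a sign that changed under other settings. The remaining 6 genes were between 1.49-fold (MYL9) and 2.01-fold (ACTG2) higher in HWG, with unadjusted p between 0.0825 and 0.202 and adjusted p between 0.524 and 0.640 in edgeR. FLNC thus differed from the rest in where its values lay: its log2 fold changes over Con were 1.06 in LWG and 1.04 in HWG, while those of TPM2 were 0.06 and 0.96, and this difference between genes was not tested. Both sets of values share the Con geese.

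In HWG over LWG, 1 of the 8 genes was higher at an unadjusted p under 0.05 and 0 lower, with 5.15% of all genes higher and 5.41% lower. At an adjusted p edgeR called 0 of the 8 and 0.0% of all genes, limma called 0 of both, and DESeq2 called 0 of the 8 and 110 of all genes. None of the 8 was free of overlap, against 4.39% of all genes. The median was 0.66, against 0.01 over all genes tested, and it was 0.26 without HWG replicate 2. The count was 5 without HWG replicate 3, where 9.71% of all genes were higher at this level and 108 passed at an adjusted p. It was 2 without LWG replicate 4, with 5.03% of all genes higher. It was 0 without Con replicate 1 or 2, LWG replicate 1, 2 or 3 or HWG replicate 1 or 2, with 3.57% to 6.48% of all genes higher.

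A test of any difference among the 3 diets gave an unadjusted p under 0.05 for TPM2 (unadjusted p = 0.0464, adjusted p = 0.635 in edgeR) and for no other of the 8. FLNC followed with unadjusted p = 0.0596 and SMTN with unadjusted p = 0.0791, and their adjusted p in edgeR was 0.655 and 0.682. The share of all genes under 0.05 was 7.8%, and 0.0% passed at an adjusted p. The count was 6 of 8 without HWG replicate 3 and 4 without Con replicate 4, 1 without LWG replicate 4, and 0 without any other single goose. The shares of all genes in those fits are not given here.

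**Figure D2:**
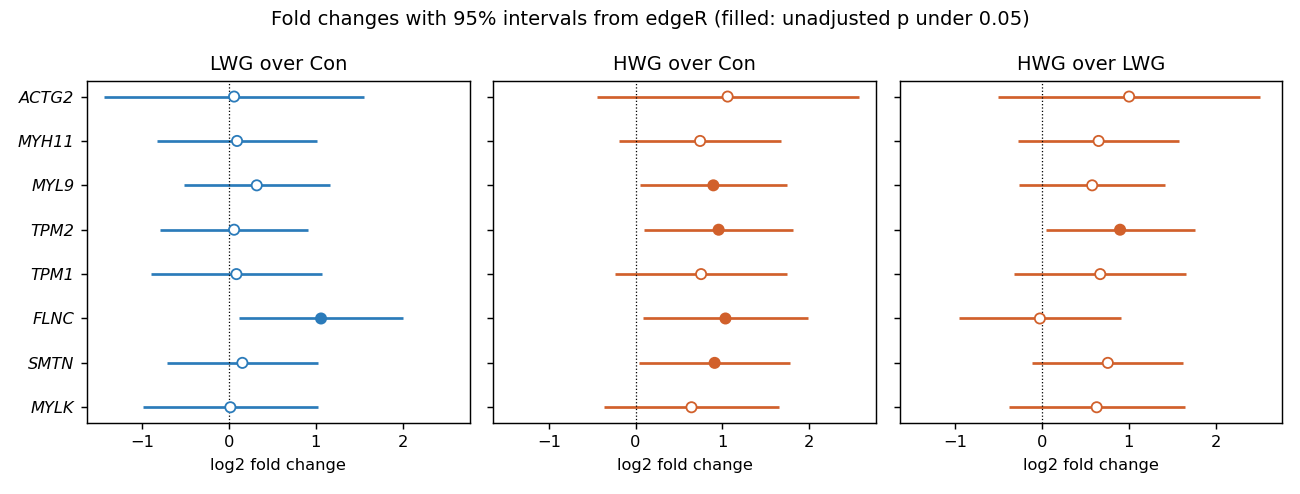
Log2 fold change (horizontal axes) of the 8 smooth muscle genes in LWG over Con, HWG over Con and HWG over LWG, with 95% intervals from edgeR and filled points at an unadjusted p under 0.05. Filled points are FLNC in LWG over Con, MYL9, TPM2, FLNC and SMTN in HWG over Con, and TPM2 in HWG over LWG.

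Within a diet the 8 genes spread more than most others. The SD of log2 CPM within diets had a median of 0.68 over the 8 genes and of 0.40 over all genes tested, and the highest goose exceeded the lowest by 4.84 times (MYL9) to 14.0 times (ACTG2), against a median of 2.56 times over all genes tested. The share of the variation in log2 CPM that lay between the diets, not corrected for the number of diets, was 11.5% for ACTG2. It was 26.9% for TPM2 and 47.5% for FLNC. The median over the 8 was 20.8%, near the 18.2% over all genes tested.

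The geese kept much the same order for most of the genes. When each gene was centred on its mean over the 12 geese and the 8 were averaged, Con replicate 3 was lowest at -1.16 on the log2 scale, followed by HWG replicate 3 at -0.86. At the upper end stood Con replicate 4 at 0.52, HWG replicate 1 at 0.78 and HWG replicate 2 at 1.41. The LWG geese filled the middle, between -0.40 and 0.32. So the HWG geese took both of the top places and the second lowest, and the Con geese reached from the lowest place to the third highest.

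**Figure D3:**
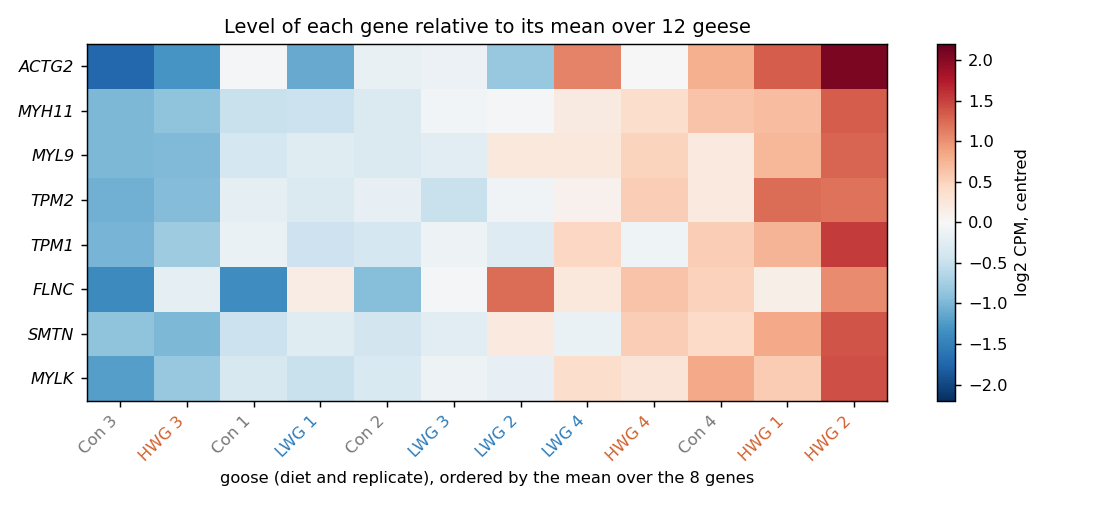
Log2 CPM of the 8 smooth muscle genes (rows) in each goose (columns, ordered by the mean over the genes), centred on the mean of each gene over 12 geese, red for above and blue for below. HWG replicate 2 is red and Con replicate 3 blue in every row, and the FLNC row departs from the others in Con replicate 1 and LWG replicate 2.

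Pearson correlations of log2 CPM over the 12 geese described how closely the genes moved together. Among the 21 pairs without FLNC, r lay between 0.81 and 0.98 with a median of 0.93, and the median was the same 0.93 after removal of the diet means. In the 7 pairs with FLNC, r lay between 0.43 and 0.72 with a median of 0.66. The r was also taken without the 2 geese farthest from the median of the first-listed gene of a pair, so the geese left out differ between pairs. The pairs without FLNC then lay between 0.62 and 0.97 and those with FLNC between 0.01 and 0.65, with a median of 0.52. In most pairs with FLNC the geese left out were chosen by the other gene, as for ACTG2 with FLNC at 0.01. Pairs share their libraries and the depth and tissue make-up of each goose. Of all pairs of one of the 8 with another tested gene, 0.956% reached an r of 0.8.

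MYH11 lay closest to the mean of the other 7 genes, with an r of 0.99 and a slope of 0.93. ACTG2 had an r of 0.88 and a slope of 1.49, so that it varied over a wider range than the genes around it. FLNC had an r of 0.62 and a slope of 0.72.

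Ratios within a goose set 2 of the genes against each other in the same library. The FPKM ratio of FLNC to MYH11 was 0.0339, 0.0531, 0.0223 and 0.0222 in the LWG geese, against 0.0118, 0.0143, 0.0163 and 0.0198 in the Con geese. All LWG geese lay above all Con geese. The ratio was 0.0149, 0.0176, 0.0347 and 0.0256 in the HWG geese, which overlapped both other diets. The ratio of ACTG2 to MYH11 reached from 1.98 in LWG replicate 2 to 6.24 in LWG replicate 4, so that the widest range stood within a single diet. The ratio of TPM2 to TPM1 lay between 1.60 and 3.22, and that of MYLK to MYL9 between 0.225 and 0.465. These ratios were examined after the values were seen and were not tested.

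**Figure D4:**
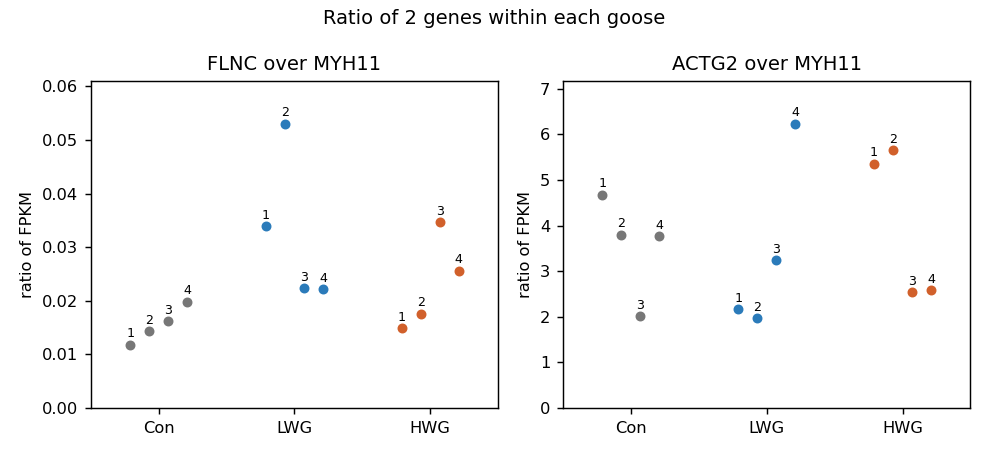
Ratio of FPKM of FLNC to MYH11 and of ACTG2 to MYH11 (vertical axes, from 0) in the Con, LWG and HWG geese, with a point per goose marked by its replicate number. The FLNC ratio lies between 0.0222 and 0.0531 in LWG, above the Con range of 0.0118 to 0.0198, while the ACTG2 ratio spans 1.98 to 6.24 within LWG.

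The genes most like the 8 were ranked by the correlation of their log2 CPM with the averaged value of the 8 over 12 geese. Those nearest had an r between 0.96 and 0.97 and included CFL2, a muscle cofilin that severs actin filaments, PGM5, a protein of muscle adhesion sites, HSPB1, a small heat shock protein, CSRP1, a LIM protein of smooth muscle, PCP4, ADIPOQ, DPYSL3 and CPN1. The least like were DIP2A, YES1, ZBTB20, ZDHHC21 and LGMN, with an r between -0.90 and -0.88. LGMN, a lysosomal protease, averaged 351 CPM, and ZBTB20, a zinc finger repressor, 3.43 CPM.

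Other genes of the contraction system were described from lists of textbook members. Their counts at an unadjusted p under 0.05 stand beside the shares over all genes tested. These shares were 2.83% higher and 3.8% lower in LWG over Con. They were 2.13% and 2.04% in HWG over Con, and 5.15% and 5.41% in HWG over LWG. The same shares apply to the lists in the paragraphs that follow. Of 26 further genes of the smooth muscle cytoskeleton, 4 were higher in HWG over Con at an unadjusted p under 0.05 and 0 lower, with a median log2 fold change of 0.37. Those named by the rule include ZYX, zyxin, a protein of adhesion sites, which averaged 130 ± 18.1 CPM in HWG and 91.6 ± 17.5 CPM in Con (SD, n = 4 each). It also averaged 131 ± 4.12 CPM in LWG, so that both doses stood above Con, as for FLNC (unadjusted p = 0.00672 in LWG over Con and unadjusted p = 0.00718 in HWG over Con, with adjusted p of 0.652 and 0.939 in edgeR). ITGA8, an integrin chain of smooth muscle, had a log2 fold change of 0.44 in HWG over Con and 0.69 in HWG over LWG. In LWG over Con, 1 of the 26 was higher and 0 lower, and in HWG over LWG 3 were higher and 0 lower.

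Among 20 calcium and ion channels, gap junction proteins included, 2 were higher and 1 lower in HWG over Con, and 6 were higher and 0 lower in HWG over LWG. In LWG over Con 0 were higher and 1 lower, and the shares of all genes are those given above. The 2 higher genes with the smallest p were the connexins that join smooth muscle cells electrically. GJA1, connexin 43, averaged 45.3 ± 7.67 CPM in Con, 42.3 ± 5.39 CPM in LWG and 84.2 ± 18.1 CPM in HWG (SD, n = 4 each), a log2 fold change in HWG of 0.89 (unadjusted p = 0.00026) over Con and of 0.99 (unadjusted p = 0.000103) over LWG. GJC1, connexin 45, averaged 16.4 ± 2.15 CPM in Con, 14.3 ± 0.383 CPM in LWG and 27.1 ± 8.75 CPM in HWG. Neither passed at an adjusted p, which in edgeR was 0.939 over Con for both, 0.306 over LWG for GJA1 and 0.338 over LWG for GJC1. GJA1 is also made by other cells of the wall.

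Of 16 genes that control myosin phosphorylation, 1 was higher and 0 lower in HWG over Con, 0 higher and 1 lower in LWG over Con, and 0 higher and 1 lower in HWG over LWG. ROCK1, a kinase that inhibits myosin phosphatase, had a log2 fold change of -0.37 in HWG over LWG. Of 18 receptors, 0 were higher and 3 lower in LWG over Con, 2 higher and 0 lower in HWG over Con, and 3 higher and 0 lower in HWG over LWG. The endothelin receptor EDNRA averaged 20.3 ± 5.91 CPM in LWG and 32.5 ± 8.13 CPM in Con (SD, n = 4 each), and EDNRB 67.8 ± 12.5 CPM in LWG and 97.0 ± 24.9 CPM in Con.

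Of 18 regulators of smooth muscle genes, 0 were called in LWG over Con in either direction, 0 higher and 1 lower in HWG over Con, and 2 higher and 1 lower in HWG over LWG. The lower one was MRTFB, listed under its older name MKL2, a coactivator of serum response factor at smooth muscle promoters. It averaged 28.8 ± 9.60 CPM in HWG and 54.0 ± 3.23 CPM in Con (SD, n = 4 each), a log2 fold change of -0.91 (unadjusted p = 0.00195, adjusted p = 0.939 in edgeR), beside positive values for all 8 contractile genes in the same comparison. TGFB3, a growth factor of the same list, had 0.86 in HWG over LWG (unadjusted p = 0.00131, adjusted p = 0.338 in edgeR).

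Markers of other cells moved with these genes to unequal degrees, and their part in the differences between diets was not tested. For each list here and below, r was taken between log2(summed FPKM + 0.1) and the averaged value of the 8 over 12 geese. It was 0.97 for the 26 cytoskeletal genes. The sum of 16 striated muscle markers, the actins ACTA1 and ACTC1 among them, had an r of 0.93 (0.84 without the 2 geese farthest out). It lay between 13.4 and 54.2 FPKM in Con, 22.9 and 47.4 in LWG and 16.9 and 129 in HWG. Of the 16, 8 stayed under 0.5 FPKM in every goose. ACTA1 and ACTC1 held 70.2 and 40.2 of the 129 FPKM in HWG replicate 2. In Con replicate 3 they held 4.92 and 1.53 of the 13.4 FPKM. Of the 10 markers tested, none was called at an unadjusted p in any of the 3 comparisons. The sum of 14 fibroblast markers had an r of 0.71 (0.41 without the 2 farthest geese) and lay between 430.0 and 1142 FPKM in Con, 523 and 762 in LWG and 667 and 1530 in HWG. The sum of 23 enterocyte markers had an r of -0.60 (-0.47 without the 2 farthest geese) and lay between 2733 and 10141 FPKM in Con, 7212 and 15131 in LWG and 2118 and 10817 in HWG. HWG replicate 3 and Con replicate 3, the geese lowest in the 8 genes, were the highest of their diets in the enterocyte sum, and the other 3 HWG geese lay between 2118 and 2776 FPKM, near Con replicates 2 and 4 at 2786 and 2733 FPKM. LWG replicate 4 went the other way, with the highest enterocyte sum of all at 15131 FPKM and the highest value of its diet in the 8 genes. In HWG over LWG, 0 of 23 enterocyte markers were higher and 7 lower, and 8 of 14 fibroblast and 8 of 11 endothelial markers were higher, with 0 lower in both lists.

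The 6 pericyte and vessel muscle markers summed to 112 to 213 FPKM in Con, 115 to 182 in LWG and 129 to 318 in HWG, with an r of 0.77 with the 8 genes (0.58 without the 2 farthest geese). Of these, 3 were higher and 0 lower in HWG over Con, where 2.13% of all genes were higher and 2.04% lower. RGS5, a signalling regulator of pericytes, averaged 1067 ± 353 CPM in HWG and 669 ± 120 CPM in Con (SD, n = 4 each). Of 5 markers of the interstitial cells of Cajal, which pace the gut muscle, 1 was higher and 0 lower in HWG over Con: KIT, their receptor kinase, averaged 44.5 ± 6.95 CPM in HWG and 32.8 ± 7.03 CPM in Con. Enteric neuron and glia markers, 17 genes, had 0 higher and 0 lower in that comparison, and their sum had an r of 0.73 with the 8 genes (0.55 without the 2 farthest geese).

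**Figure D5:**
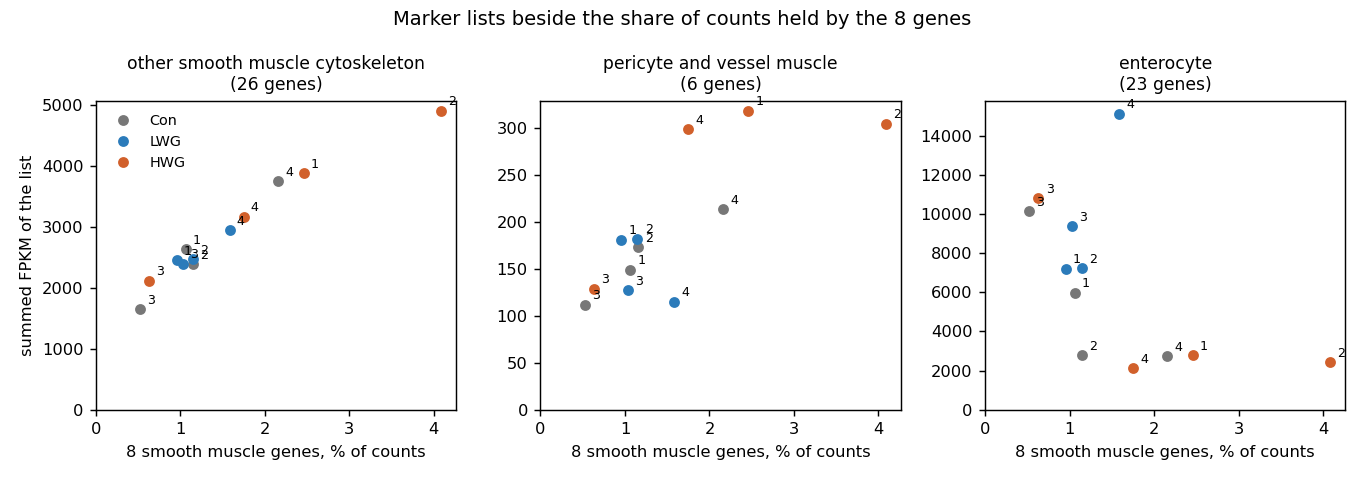
Summed FPKM of 3 marker lists (vertical axes, from 0) against the share of counts held by the 8 smooth muscle genes (horizontal axes, in %), with a point per goose coloured by diet and marked by its replicate number. The cytoskeleton list increases with the share across all geese, 3 HWG geese lie at about 300 FPKM or more in the pericyte list, and the enterocyte sums are low in the 4 geese with the highest shares but highest of all in LWG replicate 4, which has the fifth highest share.

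Some of the values carry a limit from how reads were assigned. ACTG2 has near-identical relatives in ACTA2, ACTA1 and ACTC1, between which reads may have been split, and ACTA1 and ACTC1 count among the striated muscle markers above. Gene models annotated as like the smooth muscle kinase and as a partial filamin C stood in the table as separate entries, so part of the reads of MYLK and FLNC may be counted there. The model of FLNC itself is marked as being of low quality. A gene on the opposite strand overlaps SMTN and had up to 3337 counts in a library, and the one that overlaps MYH11 had up to 27. The 8 genes lie on 8 different scaffolds of the table.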

How the data were processed

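Libraries of poly(A) RNA from the jejunum of 12 geese were sequenced as pairs of 150-base reads. Per the methods and the labels, the authors trimmed reads with fastp, aligned them with HISAT2 and estimated levels with StringTie (versions not given in the sources used here). The deposited table gives a count per gene, not normalized, and an FPKM value that the authors computed per gene and goose. Its scaffold names are those of a RefSeq assembly other than the one named in the methods, so no positions or sequences are given. Among deposited counts of 1 to 40, 32.2% were multiples of 4, where 25% of whole numbers are, so a count may not be 1 read pair and no counting interval is given.

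Counts were fitted for all 12 libraries at once in edgeR 4.0.16 under R 4.3.3 (filterByExpr, TMM, quasi-likelihood F-test, diet as the only factor, no covariate), with p adjusted by Benjamini-Hochberg over 14863 genes. The procedure was checked on simulated counts. The common biological coefficient of variation was 0.384. Alternatives were DESeq2 1.42.0, limma 3.58.1 on log2(FPKM + 0.1) or log2(FPKM + 1), other scaling, no filter, a robust prior, only the groups compared, counts divided by 4, a replicate block and each library left out. CPM values are TMM-scaled, and for correlations a prior count of 2 was added before logs were taken. The geese are the replicates, and the tests set differences between diets against the spread between geese of a diet.

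The 10 genes and the marker lists were chosen with earlier results of these data known. All 10 were to be described, with at most 4 genes of each other list (those with the smallest p in any comparison), defining markers, and the 10 genes most and 5 least like the 8, of which 2 are not reported here. List genes without a matching symbol were matched by gene number through a RefSeq table of another goose assembly, which held 15158 of the 18007 gene numbers.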

Additional observations from a re-analysis of the deposited data

Results flagged for a closer look

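In 24 groups of 4 geese (8 genes in 3 diets), each highest and lowest CPM was compared with its nearest neighbour. Chance flags about 1 in 20 groups in this test if values are normally distributed, which CPM need not be. On the log2 scale used for the within-diet spread, high values stand out less, so the flags depend on the scale. Both values that stood far from the rest of their diet were of FLNC: Con replicate 4 at 109.7 CPM, against 29.4 to 40.7 CPM in the other Con geese, and LWG replicate 2 at 182.5 CPM, against 76.6 to 91.2 CPM in the other LWG geese. No ACTG2 value was far enough from its neighbour to be marked, although ACTG2 had the widest range.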

How the results depend on the processing

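Over 22 alternatives for each of the 24 values (8 genes in 3 comparisons), 441 of 528 kept their direction and their side of an unadjusted p of 0.05, 46 were no longer past it, 12 were newly past it and 29 changed sign. The number of the 8 genes at an adjusted p under 0.05 was 0 in every alternative. The number at an unadjusted p was 1 in HWG over Con with limma at both pseudocounts and with only the groups compared. In these fits 1.72% to 2.76% of all genes were higher. The number was 0 in HWG over LWG under the same 3 settings, with 4.93% to 8.3% of all genes higher. It was 0 in LWG over Con with library size alone, with 1.98% of all genes higher. For the 3 diets together it was 3 with DESeq2, 2 without the filter and 2 with the replicate block, and shares of all genes are not given. With 1 library left out the number ranged from 0 to 1 in LWG over Con, 0 to 8 in HWG over Con and 0 to 5 in HWG over LWG. The shares of all genes higher ranged from 1.74% to 6.09%, 1.27% to 5.56% and 3.57% to 9.71% in these comparisons. For the 3 diets the number ranged from 0 to 6, and shares are not given.

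Signs changed mostly for values near 0. With library size alone, LWG over Con gave -0.15 for ACTG2, -0.059 for MYH11, -0.15 for MYLK, -0.068 for TPM1 and -0.072 for TPM2, while all tested genes shifted to a median of -0.09 (and to 0.14 in HWG over LWG). ACTG2 was -0.067 in that comparison with limma at both pseudocounts. FLNC in HWG over LWG was 0.14 and 0.13 with limma, 0.11 with library size alone and 0.015 without the filter. With 1 library left out, LWG over Con ranged from -0.61 to 0.48 for ACTG2, -0.12 to 0.50 for MYH11, -0.24 to 0.52 for MYLK, -0.026 to 0.47 for SMTN, -0.15 to 0.42 for TPM1 and -0.16 to 0.25 for TPM2, and HWG over LWG from -0.27 to 0.37 for FLNC. The causes were not tested.

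Of 12 pairs of geese with the same replicate number, 6 had deviations correlated above 0.1 (r from -0.28 to 0.38), against 10 of 36 other pairs, and all 3 pairs of replicate 3 lay between 0.15 and 0.38. Since not every pair was above 0.1 and no source says what a number shares, the geese were not treated as paired. Whether only some numbers share a condition was not tested. The fit with a replicate block gave 1, 4 and 1 genes in LWG over Con, HWG over Con and HWG over LWG, with medians of 0.21, 0.81 and 0.53. With the block, the unadjusted p of FLNC in edgeR was 0.00479 in LWG over Con and 0.00583 in HWG over Con. Without the block these were 0.0312 and 0.0345. In the block fit 4.2%, 2.07% and 5.02% of all genes were higher at an unadjusted p under 0.05. It called 8 of all genes at an adjusted p in HWG over LWG, none of them among the 8 described. With 4 geese per diet and a share of counts held by the 8 genes between 0.524% and 4.09%, differences of the size seen here could not be separated from the spread between geese.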

Other observations

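Of 7 tested genes that mark position along the gut, 1 was higher and 0 lower in LWG over Con at an unadjusted p under 0.05, against 2.83% and 3.8% of all genes. It was FABP6, an ileal bile acid binding protein, which averaged 13273 ± 7144 CPM in LWG and 4178 ± 672 CPM in Con (SD, n = 4 each), a log2 fold change of 1.67 (unadjusted p = 0.00724, adjusted p = 0.652 in edgeR), and 3384 ± 1948 CPM in HWG. The log2 of the summed FPKM of this list, plus 0.1, had an r of -0.03 with the averaged value of the 8 smooth muscle genes over 12 geese. Abundant genes such as FABP6 weigh most in this sum. SLC10A2 and CDX1 of the same list averaged 111.8 and 46.6 CPM in LWG. The r therefore does not describe the less abundant position genes, and a relation of the 8 genes with position was not tested.

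Markers of lymphatic and blood vessel lining were lower in LWG over Con at an unadjusted p under 0.05 for 3 of 11 genes and higher for 0, and none passed at an adjusted p. Over all genes tested, 3.8% were lower and 2.83% higher. LYVE1, a receptor of lymphatic endothelium, averaged 38.9 ± 16.1 CPM in LWG and 83.5 ± 17.6 CPM in Con (SD, n = 4 each), and 91.4 ± 27.3 CPM in HWG. Of 14 leukocyte markers, 4 were higher and 0 lower in LWG over Con at the same threshold, while the summed FPKM of the list had a median of 3294 in LWG and 3780 in Con. Among the 4, PAX5 averaged 9.41 ± 17.7 CPM in LWG and 0.76 ± 0.624 CPM in Con (SD, n = 4 each), a spread wider than its mean, and CD3E, a chain of the T cell receptor complex, averaged 168 ± 40.7 CPM in LWG and 113 ± 27.4 CPM in Con.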
